A study of Mus musculus with 241 samples.

Results

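The nuclear genes of mitochondrial oxidative phosphorylation were followed through the earliest stages of mouse T-cell development in the thymus. They were taken by symbol, as every gene whose name starts with Nduf, Uqcr, Atp5, Cox4, Cox5, Cox6, Cox7 or Cox8. The bulk RNA-seq table holds 89 such genes among 24506, namely 38 subunits of complex I, 8 assembly factors of complex I (Ndufaf), 8 subunits of complex III, 18 of complex IV and 17 of complex V. The gene list of the 10x single-cell libraries holds 88 of 27998 (Ndufaf8 has no entry there), and the table of C1 single cells holds 88 of 43346. Grouping by symbol puts Ndufa4, known as a subunit of complex IV, with complex I, and puts Atp5sl, known in man as the complex I assembly factor DMAC2, with complex V. The 13 mitochondrially encoded subunits, complex II and the separate assembly factors are not members, and are given as other genes of the pathway.

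The cells were lineage-negative, 7AAD-negative (living) thymocytes that carry CD44 and the receptor Kit, from C57BL/6 mice whose age the labels do not give. The bulk samples came from mice with a yellow fluorescent reporter at both copies of Bcl11b (Bcl11byfp/yfp), the gene whose activation marks commitment to the T lineage. Sorting on CD25, Flt3 and the reporter gave Flt3- ETP (early T-cell precursors, CD25-; 2 libraries), Bcl11b- DN2a (CD25+, reporter-negative; 3 libraries), Bcl11b+ DN2a (CD25+, reporter-positive; 3 libraries), Flt3+ ETP (2 libraries) and ETP not divided by Flt3 (total ETP; 2 libraries). The 2 droplet (10x) libraries and the C1 single cells came from wild-type mice, over the whole CD44+ Kit+ gate with no division by CD25 or Flt3. No label ties any replicate library to a separate mouse, so bulk p-values measure the spread between libraries, which may be technical. The 10x test had library as a block. Its p-values measure only how far differences between groups of cells varied between the 2 libraries.

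Oxidative phosphorylation passes electrons from NADH through complexes I, III and IV to oxygen, and complex V uses the resulting proton gradient to make ATP. Complex IV (cytochrome c oxidase) has several nuclear subunits that exist as pairs of a widely used gene and a gene known from a few tissues, such as Cox4i1 and the lung form Cox4i2. ETP are the first thymic progenitors; they acquire CD25 on becoming DN2a, and DN2a cells then switch on Bcl11b.

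The bulk libraries were made with either of 2 kits, and the kit moved the median member more than any comparison of populations did. NEBNext Ultra made 8 libraries without pre-amplification and SMART-Seq v4 with Nextera XT made 4, 1 for each population except total ETP. The members were 1.06 higher in log2(FPKM + 1) (median of the kit differences) in SMART-Seq libraries than in NEBNext libraries, with 78 of 85 tested members higher. Other short genes moved alike, with a median of 0.99 over 793 non-members whose models span at most 1000 bases, against 0.01 over all genes tested. Levels are therefore given kit by kit. Depth, recovered from the FPKM steps, lay between 21196133 and 38541328 reads. Of the genes behind the sort, Bcl11b stood at 16.1 to 44.3 FPKM in Bcl11b+ DN2a and 0.596 to 6.11 in Bcl11b- DN2a. The NEBNext libraries of Flt3- and Flt3+ ETP listed Bcl11b at 4.54 and 5.77 FPKM and Il2ra (CD25) at 18.4 and 17.5, against at most 0.061 and 4.74 in their SMART-Seq partners. Across the NEBNext libraries the library of Flt3- ETP stood apart, with 70 of 85 members above their NEBNext median by a median of 0.41 on the log2 scale; the short non-members deviated there by 0.37 and the cytosolic ribosomal protein genes by 0.77. The medians of members that rest on that library are given also without it.

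Nearly the whole machinery was expressed in every population. Of the 89 members, 84 stood above 1 FPKM in all 12 libraries, including all 17 of complex V, all 8 of complex III, all 8 assembly factors and 37 of 38 complex I subunits. The exceptions were 4 genes of complex IV (Cox7a1, Cox7b2, Cox8b and Cox8c) and Ndufa4l2. FPKM are reads per length, so levels of different genes can be set side by side within a kit. The median member of complex V stood at 138.2 FPKM over the NEBNext libraries, above complex IV at 109.3 FPKM, complex III at 80.1 FPKM, complex I at 51.3 FPKM and its assembly factors at 7.50 FPKM. The SMART-Seq libraries gave 281, 153.6, 157.4, 130.2 and 25.4 FPKM for the same 5 classes, in nearly the same order.

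**Figure D1:**
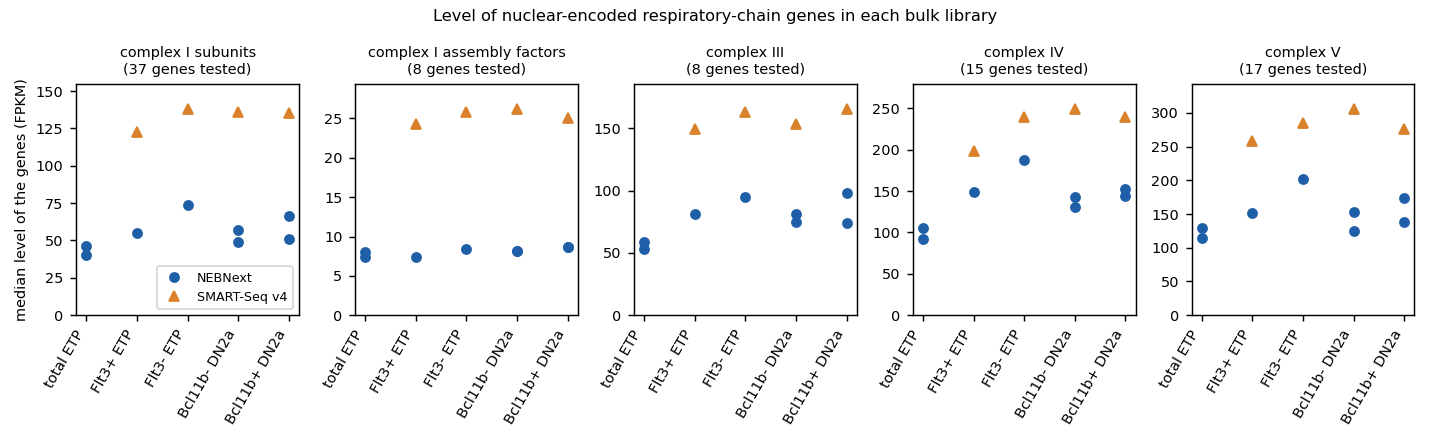
Median FPKM of the tested members (linear axis from 0) in 1 panel for each class, with 1 point a library, the populations along the horizontal axis, circles for NEBNext and triangles for SMART-Seq v4. SMART-Seq points lie above NEBNext points in every panel, complex V is the highest class in 10 of 12 libraries (complex IV in the others), and the 2 total ETP libraries are low in complexes I, III and IV and in complex V.

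The most abundant member was Atp5b, the catalytic beta subunit of ATP synthase, with a NEBNext median of 417 FPKM (lowest and highest of 8 libraries, 338 and 440). Atp5g2, 1 of 3 genes for the same membrane ring subunit, followed at 274 FPKM, ahead of Atp5g3 at 200.3 FPKM and Atp5g1 at 79.8 FPKM. That order depended on the kit, since SMART-Seq libraries put Atp5g3 first at 471 FPKM, then Atp5g1 at 281 FPKM and Atp5g2 at 193.1 FPKM. Cox4i1, the common form of the subunit that binds ATP in complex IV, stood at 270.05 FPKM (198.1 and 581), Cox8a at 203.7 FPKM, Ndufa4 at 201.85 FPKM and Cox6b1 at 160.1 FPKM. At the low end, Cox8b, known from heart and muscle, and Cox8c and Cox7b2, known from testis, had NEBNext medians of 0 FPKM, and Ndufa4l2, known as a hypoxia-induced paralogue of Ndufa4, had 0.07 FPKM. In both 10x libraries together Cox8b had 1 UMI (unique molecular identifier, 1 counted transcript), and Cox8c, Cox7b2 and Ndufa4l2 had 0 UMIs. Cox7a1, the heart and muscle form of Cox7a, was low, at 0.520 to 3.13 FPKM over the 12 libraries, while Cox7a2 and the supercomplex factor Cox7a2l had NEBNext medians of 56.9 and 154.75 FPKM.

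The largest difference of any member was the low level of Cox4i2 (chromosome 2, 152754173 to 152765037 in mm10, plus strand) in Bcl11b+ DN2a. In NEBNext libraries it stood at 11.3 FPKM in Flt3- ETP, 4.85 and 4.63 FPKM in Bcl11b- DN2a, 1.14 and 1.18 FPKM in Bcl11b+ DN2a, 10.5 FPKM in Flt3+ ETP and 5.16 and 5.34 FPKM in total ETP. In SMART-Seq libraries it stood at 18.5 FPKM in Flt3- ETP, 10.3 FPKM in Bcl11b- DN2a, 3.20 FPKM in Bcl11b+ DN2a and 17.2 FPKM in Flt3+ ETP. Within each kit the Bcl11b+ DN2a libraries were lowest, the Bcl11b- DN2a libraries lay between, and the ETP divided by Flt3 were highest; Flt3- and Flt3+ ETP were close together.

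Cox4i2 was lower in Bcl11b- DN2a than in Flt3- ETP by -0.97 on the log2(FPKM + 1) scale (SE 0.15; limma with Benjamini-Hochberg adjustment over 12112 genes, adjusted p = 0.00359), with -1.10 among NEBNext and -0.80 among SMART-Seq libraries. Without the NEBNext library of Flt3- ETP the adjusted p was 0.0513. It was lower again in Bcl11b+ than in Bcl11b- DN2a by -1.41 (SE 0.13; limma, adjusted p = 0.000199), with -1.41 and -1.42 in the 2 kits. Between Bcl11b+ DN2a and Flt3+ ETP the difference was -2.29 (SE 0.15; limma, adjusted p = 3.56e-06). These comparisons share libraries, so they are not separate pieces of evidence. Flt3- and Flt3+ ETP differed by 0.10 (limma, adjusted p = 0.76), and Bcl11b- DN2a and total ETP by -0.08 (limma, adjusted p = 0.713). Total ETP thus lay at the level of Bcl11b- DN2a within NEBNext, and below the ETP divided by Flt3.

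Its common partner did not show that pattern. Cox4i1 stood at 581 and 543 FPKM in Flt3- ETP (NEBNext and SMART-Seq), at 287, 253 and 500.0 FPKM in Bcl11b- DN2a (the last SMART-Seq), at 339, 234 and 441 FPKM in Bcl11b+ DN2a, and at 289 and 458 FPKM in Flt3+ ETP; the total ETP libraries were the lowest of all, down to 198.1 FPKM. Bcl11b+ and Bcl11b- DN2a libraries overlapped, and the NEBNext library of Flt3- ETP was the highest of all. The difference between Bcl11b+ and Bcl11b- DN2a was -0.02. As a share of the summed FPKM of the pair, Cox4i2 made up 1.91 and 3.30% in Flt3- ETP, 1.66 to 2.01% in Bcl11b- DN2a, 0.336 to 0.721% in Bcl11b+ DN2a and 3.51 and 3.62% in Flt3+ ETP. Cox4i1 shares exon sequence with Emc8 on the other strand, and the strandedness of the bulk counting is not given in the sources used here, so reads of the 2 genes cannot be told apart there.

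**Figure D2:**
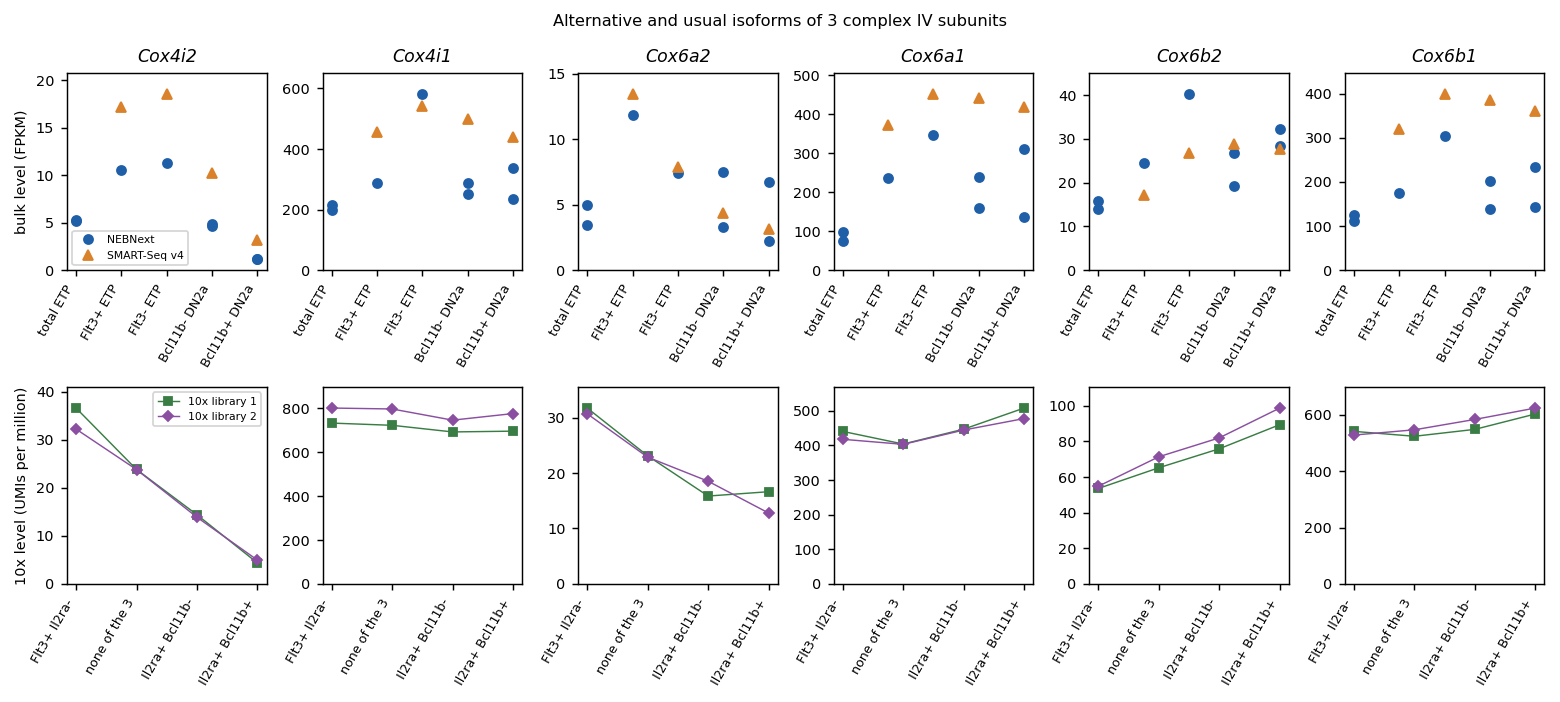
Levels of Cox4i2, Cox6a2 and Cox6b2, each beside its common partner, with FPKM in every bulk library in the upper row (circles NEBNext, triangles SMART-Seq v4) and UMIs per 1000000 in the 4 transcript gates of the 10x libraries in the lower row (1 line a library). Cox4i2 is lowest in Bcl11b+ DN2a (1.14 to 3.20 FPKM) and in Il2ra+ Bcl11b+ cells, Cox6b2 is highest in Il2ra+ Bcl11b+ cells among the gates, and Cox4i1 lies between 692 and 801 CPM over the gates.

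Cox6a2, the heart and skeletal muscle form of Cox6a, was lower in Bcl11b+ DN2a than in Flt3+ ETP. It stood at 6.73, 2.25 and 3.18 FPKM in Bcl11b+ DN2a (the last SMART-Seq), against 11.9 and 13.4 FPKM in Flt3+ ETP (NEBNext and SMART-Seq), a difference of -1.54 (SE 0.35; limma, adjusted p = 0.0141). The groups did not overlap, and both kits gave the same sign (-1.36 and -1.79), but the call held in 7 of 13 alternative fits and was lost without either Flt3+ ETP library or without the SMART-Seq library of Bcl11b+ DN2a. Flt3- ETP had 7.43 and 7.87 FPKM, total ETP 5.01 and 3.46 FPKM, and Bcl11b- DN2a 7.48, 3.30 and 4.35 FPKM. Flt3- against Flt3+ ETP gave -0.65 (limma, adjusted p = 0.382) and Bcl11b+ against Bcl11b- DN2a gave -0.30 (limma, adjusted p = 0.941). Cox6a2 shares exon sequence with Itgad on the other strand, whose reads likewise cannot be told apart. Its common partner Cox6a1 stood at 311, 136.1 and 420 FPKM in Bcl11b+ DN2a, against 237 and 372 FPKM in Flt3+ ETP, and those groups overlapped.

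Cox6b2, the testis form of Cox6b, had a higher estimate in Bcl11b+ DN2a than in Flt3+ ETP, with 32.3, 28.4 and 27.8 FPKM in Bcl11b+ DN2a (the last SMART-Seq) against 24.6 and 17.1 FPKM in Flt3+ ETP (NEBNext and SMART-Seq). The groups did not overlap, yet the difference of 0.47 did not pass (limma, adjusted p = 0.217). It passed with the replicate block (0.57, limma, adjusted p = 0.0449), whose pairing the library numbers do not bear out for total ETP. In Bcl11b- DN2a it stood at 26.9, 19.2 and 28.9 FPKM, against 40.2 and 26.9 FPKM in Flt3- ETP (NEBNext and SMART-Seq), a difference of -0.43 (limma, adjusted p = 0.229). Total ETP had 15.8 and 14.01 FPKM, below every Bcl11b- DN2a library, a difference of 0.75 that passed and is listed with that comparison.

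Apart from these isoform genes, no member passed between sorted populations in limma except against total ETP. In bulk, fewer cells of a type and less RNA per cell cannot be told apart, and this holds for every population difference here. The fit tested 85 of the 89 members, those above 1 FPKM in at least 2 libraries, with population and kit as terms. Extremes by class are given over members with a mean log2(FPKM + 1) of at least 3, together with the isoform genes, which leaves out the low Ndufaf5 and Atp5s.

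Between Flt3- and Flt3+ ETP no member passed (0 of 85, against 0.685% of all genes tested). The smallest adjusted p among members was 0.184 in limma. At an unadjusted p under 0.05, the share of short non-members was slightly larger than that of the members. The members had 21 of 85 there, against 2123 of 12112 genes. The median estimate was 0.24 with 69 of 85 above 0, against -0.15 over all genes; by class it was 0.32 for complex I, 0.09 for its assembly factors, 0.21 for complex III, 0.35 for complex IV and 0.13 for complex V. Scaling by median ratios moved the median of all genes to -0.01 and that of the members to 0.40. Without the NEBNext library of Flt3- ETP the members' median was 0.13, and without its SMART-Seq partner 16 members passed (13 higher and 3 lower), where 13.3% of all genes did. Short non-members had a median of 0.25 and cytosolic ribosomal protein genes 0.42 in the same comparison.

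The member with the largest positive estimate was Atp5e, the small epsilon subunit of ATP synthase, at 718 and 255 FPKM in Flt3- ETP (NEBNext and SMART-Seq), against 211.1 and 202.1 FPKM in Flt3+ ETP. Both kits put Flt3- ETP higher, but by 1.76 in NEBNext and 0.33 in SMART-Seq, and the pooled difference of 1.05 (SE 0.35) did not pass (limma, adjusted p = 0.199). Ndufa2, an accessory subunit of complex I, had the same unevenness, at 171.6 and 148.8 FPKM in Flt3- ETP against 51.8 and 126.2 FPKM in Flt3+ ETP (limma, adjusted p = 0.225). Among the other classes the largest positive estimates were 0.65 for Cox6b2 (40.2 and 26.9 FPKM in Flt3- ETP, 24.6 and 17.1 FPKM in Flt3+ ETP), 0.63 for the assembly factor Ndufaf3 and 0.52 for Uqcrh, the hinge subunit of complex III. The lowest beside Cox6a2 and the low Ndufaf5 (-0.49) was Atp5b, at 338 and 442 FPKM in Flt3- ETP against 438 and 648 FPKM in Flt3+ ETP, a difference of -0.46 (limma, adjusted p = 0.197). Ndufa10, Ndufaf1 and Uqcrc2 had the lowest estimates of their classes, at -0.32, -0.29 and -0.29, and their 2 kits did not give like values, with Ndufa10 at -0.73 in NEBNext and 0.09 in SMART-Seq.

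Summed levels of markers of other cell types and of cycling differed between those 2 populations. The summed level of 12 myeloid and granulocyte markers was 964 and 1809 FPKM in Flt3- ETP and 256 and 349 FPKM in Flt3+ ETP, with 9 of 12 higher in Flt3- ETP and none at 0 in all libraries of either. Markers of the erythroid, megakaryocyte and mast cell lineages summed to 173.3 and 358 FPKM in Flt3- ETP, against 35.6 and 49.4 FPKM in Flt3+ ETP, with 3 of 6 tested higher. Cycling (G2/M) markers summed to 290 and 613 FPKM in Flt3- ETP, against 486 and 926 FPKM in Flt3+ ETP. Their part in the members' estimates was not tested.

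**Figure D3:**
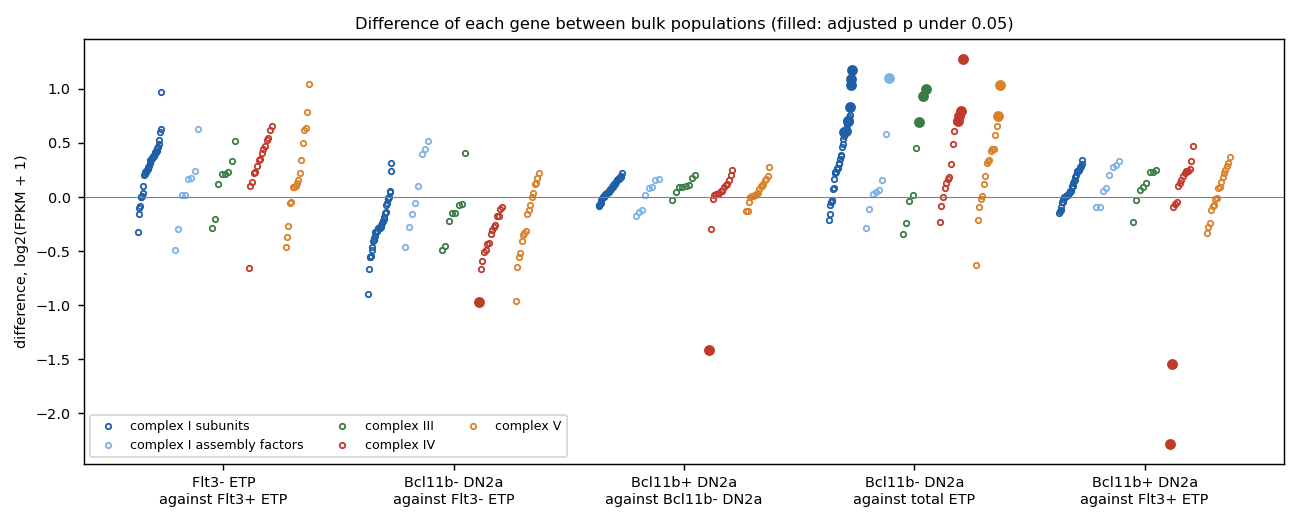
Difference in log2(FPKM + 1) for each tested member, by class, in 5 comparisons of sorted populations (first-named population minus the second), with 1 point a member and filled points for adjusted p under 0.05 in limma. Cox4i2 is the lowest filled point at -0.97, -1.41 and -2.29 in the comparisons where it passed, and 18 members are filled above 0 for Bcl11b- DN2a against total ETP.

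In Bcl11b- DN2a against Flt3- ETP, Cox4i2 was the only member that passed in the limma fit (1 of 85, against 3.97% of all genes, 1.62% higher and 2.35% lower). The median estimate was -0.26 with 70 of 85 below 0, against 0.12 over all genes. Complex IV had a median of -0.34 with 15 of 15 estimates below 0, complex I -0.28, complex V -0.16, complex III -0.15 and the assembly factors 0.02. Without the NEBNext library of Flt3- ETP, which left 1 library of that population, the call of Cox4i2 was not kept. The members' median was then -0.10, against -0.01 over all genes. The same comparison gave -0.25 for short non-members and -0.46 for cytosolic ribosomal protein genes. The lowest uncalled members were uneven between the kits. Atp5e, the epsilon subunit, had a difference of -0.96 (limma, adjusted p = 0.117), made of -1.72 in NEBNext and -0.04 in SMART-Seq. Ndufa2 had -0.90 (limma, adjusted p = 0.14), made of -1.60 and -0.04, and Cox4i1 had -0.67 (limma, adjusted p = 0.103), made of -1.10 and -0.12. The highest estimates were 0.52 for Ndufaf1, an assembly factor of complex I, 0.41 for Uqcrc2, a core protein of complex III, 0.32 for Ndufs1, the largest core subunit of complex I, and 0.23 for Atp5a1, the alpha subunit of ATP synthase, none of which passed. All 12 myeloid markers were lower in this comparison (summed level 167.8 to 242 FPKM in Bcl11b- DN2a, 964 and 1809 FPKM in Flt3- ETP), and their part in the result was not tested.

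In Bcl11b+ against Bcl11b- DN2a the members other than Cox4i2 hardly differed. No member was higher and 1 was lower, where 2.79% of all genes passed (1.15% higher and 1.64% lower). Cox4i2 was also the only member of 85 at an unadjusted p under 0.05, against 1388 of 12112 genes and 79 of 793 short non-members. The median estimate was 0.07 with 69 of 85 above 0, against -0.04 over all genes and 0.02 over short non-members. It was -0.04 without the second NEBNext library of Bcl11b- DN2a, -0.01 without the first library of Bcl11b+ DN2a and 0.18 without the second. Class medians lay between 0.04 (complex V) and 0.10 (complex III). The 95% interval of a typical member reached 0.34 to each side of its estimate (median). That interval is not adjusted for the number of genes tested, so a call needed a larger difference than that. The highest estimate was 0.28 for Atp5h, the peripheral-stalk subunit d of ATP synthase, at 229, 194.5 and 478 FPKM in Bcl11b+ DN2a (the last SMART-Seq), against 179.3 FPKM in the first and 434 FPKM in the SMART-Seq library of Bcl11b- DN2a, with the second NEBNext library of Bcl11b- DN2a lowest (limma, adjusted p = 0.661). Each Bcl11b+ library stood above the Bcl11b- library of the same number, while the groups overlapped. Myeloid markers were lower here too, in 4 of 12, with S100a9 at 0 in all 3 Bcl11b+ DN2a libraries; summed levels were 23.8 to 73 FPKM in Bcl11b+ and 167.8 to 242 FPKM in Bcl11b- DN2a, and their part in the loss of Cox4i2 was not tested in bulk.

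Against total ETP, 18 members were higher in Bcl11b- DN2a and 0 were lower, where 9.78% of all genes were higher and 5.87% lower. They comprised 8 of 37 complex I subunits, 1 of 8 assembly factors, 3 of 8 of complex III, 4 of 15 of complex IV and 2 of 17 of complex V. The median estimate of the members was 0.31, that of short non-members 0.34 and that of all genes 0.00. A slightly larger share of the short non-members than of the members passed as higher, and a small share of short non-members passed as lower. The excess of higher calls over all genes was thus not particular to the members. Myeloid markers were lower in Bcl11b- DN2a in 11 of 12 (summed level 167.8 to 242 FPKM; total ETP had 488 and 507 FPKM), and their part was not tested.

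The largest of these differences was that of Cox6a1, the common form of Cox6a, with 238, 158.7 and 442 FPKM in Bcl11b- DN2a (the last SMART-Seq) and 97.1 and 75.9 FPKM in total ETP, a difference of 1.28 (SE 0.32; limma, adjusted p = 0.0249). The groups did not overlap. Ndufb7, an accessory subunit of complex I, had 111.9, 72.1 and 241 FPKM in Bcl11b- DN2a and 47.4 and 38.03 FPKM in total ETP (1.17, SE 0.31; limma, adjusted p = 0.0302). Ndufs7, a core subunit that holds an iron-sulphur cluster, had 68.97, 50.5 and 169.9 FPKM in Bcl11b- DN2a and 31.8 and 27.1 FPKM in total ETP (1.09; limma, adjusted p = 0.026). Ndufaf8, an assembly factor, had 17.97, 16.8 and 47.7 FPKM in Bcl11b- DN2a and 8.49 and 7.59 FPKM in total ETP (1.10; limma, adjusted p = 0.0254). In all of these the second NEBNext library of Bcl11b- DN2a came nearest to total ETP. Atp5d (the delta subunit of ATP synthase, 1.04), Ndufa11 (1.04), Uqcrq (a small subunit of complex III, 1.00), Uqcr11 (0.93), Ndufa7 (0.83) and Cox5b (0.80) completed the 10 largest. The other 8 were Cox6b2, Atp5g1, Ndufb8, Cox8a, Ndufa13, Uqcr10, Ndufb2 and Ndufv1, between 0.60 and 0.75. Uqcrc2 (-0.34) had the lowest estimate of complex III and Atp5c1 (-0.21) that of complex V, beside -0.63 for the low Atp5s; none passed.

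These calls depended on single libraries and on the model. With a replicate block 33 members passed (32 higher and 1 lower). That block pairs total ETP with DN2a by replicate number, which the library numbers do not bear out. The share of all genes called in this and the next fits is not given here. The count of members called was 1 and 0 without the first and second total ETP library, 0, 29 and 3 without library 1, 2 and 3 of Bcl11b- DN2a, and 0 among NEBNext libraries alone. Both total ETP libraries stood low within NEBNext, by -0.24 and -0.27 on the log2 scale for the median member, and by -0.18 and -0.30 for short non-members. They were numbered in 1 series with the second NEBNext libraries of DN2a. That series holds 1 library of Bcl11b- DN2a, so a count of calls from it alone is not given.

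Over the whole range, Bcl11b+ DN2a against Flt3+ ETP gave 0 higher members and 2 lower (Cox4i2 and Cox6a2), where 3.41% of all genes were higher and 7.90% lower. The share of short non-members at an unadjusted p under 0.05 was larger than that of the members. Only 5 members were under it, against 2788 of 12112 genes. The median estimate was 0.09, against -0.03 over all genes. Beyond Cox6b2, the highest estimates by class were 0.37 for Atp5h, 0.34 for the complex I accessory subunit Ndufb6, 0.33 for Ndufaf3 and 0.25 for Uqcr10, and the lowest were -0.34 for Atp5sl, -0.23 for the complex III core protein Uqcrc1 and -0.15 for Ndufs7; none passed. With the same replicate block 4 members passed (2 higher and 2 lower), and the share of all genes there is not given here. Myeloid markers were lower in 7 of 12 (summed level 23.8 to 73 FPKM in Bcl11b+ DN2a, 256 and 349 FPKM in Flt3+ ETP), and their part was not tested.

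**Figure D4:**
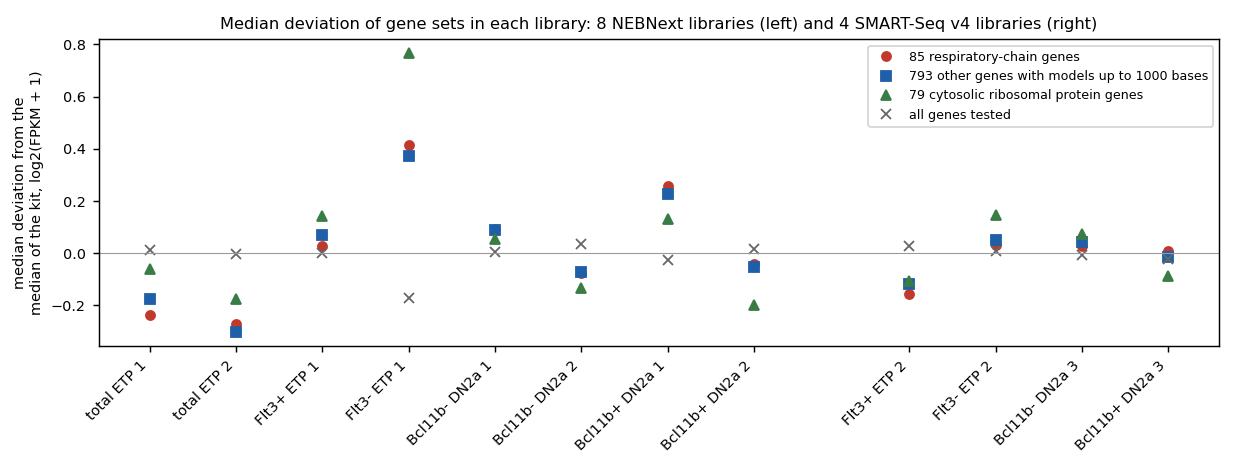
Median deviation of each bulk library from the median of its kit, in log2(FPKM + 1), for the 85 tested members, the 793 short non-members, the 79 cytosolic ribosomal protein genes and all genes tested. The NEBNext library of Flt3- ETP stands highest at 0.41 for the members, and the 2 total ETP libraries lowest at -0.24 and -0.27.

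The 10x libraries allowed a finer comparison, since they count transcripts in single cells of the whole CD44+ Kit+ gate, not divided by CD25 or Flt3. They held 5006 and 8867 barcodes, of which 57 were in both; 4878 and 8434 cells had at least 1000 genes and at most 10% mitochondrial UMIs, with medians of 8488.5 and 6137 UMIs a cell. Doublets were not called. Cells were placed by the UMIs of the 3 genes behind the sort: 443 and 624 cells with Flt3 but neither of the others, 1635 and 3295 with none of the 3, 1450 and 2088 with Il2ra and not Bcl11b, and 1197 and 1933 with Il2ra and Bcl11b. These gates are transcript gates and not the sorted populations. UMIs were summed by gate and library, and edgeR tested 84 members among 11760 genes with library as a block, so that each comparison rests on 2 libraries.

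The members as a group took a slightly larger part of the transcripts in Il2ra+ Bcl11b+ cells than in the other gates. In CPM (UMIs of a gene or group per 1000000 UMIs) they made up 23218 and 22560 in Flt3+ cells (libraries 1 and 2), 22183 and 22210 in cells with none of the 3, 23508 and 23606 in Il2ra+ Bcl11b- cells, and 25474 and 25380 in Il2ra+ Bcl11b+ cells. The last gate was highest in both libraries and the gate with none of the 3 lowest. Complex V made up 6622 and 6187 CPM in Flt3+ cells, 6264 and 6013 with none of the 3, 6653 and 6451 in Il2ra+ Bcl11b- cells and 7366 and 7059 in Il2ra+ Bcl11b+ cells. Complex I followed the same order, with 7192 and 6984, 6905 and 6919, 7332 and 7347, and 7931 and 7856 CPM. Cytosolic ribosomal protein transcripts took 41.4 and 39.3% of all UMIs in Flt3+ cells and 36.8 and 35.6% in Il2ra+ Bcl11b+ cells, so shares of other genes move with them.

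In Il2ra+ Bcl11b+ against Il2ra+ Bcl11b- cells, 32 members were higher and 3 lower (of 84), where 12.6% of all genes were higher and 13.7% lower. The 32 were 14 of 37 complex I subunits, 1 of 7 assembly factors, 3 of 8 of complex III, 5 of 15 of complex IV and 9 of 17 of complex V. Their differences were small, from 0.10 to 0.29 on the log2 scale. The median of all 84 was 0.08 with 60 above 0 in both libraries, against -0.01 over all genes. With library totals in place of trimmed-mean scaling 43 were higher and 1 lower. In DESeq2 13 members passed (12 higher and 1 lower), 19 without cycling cells (18 higher and 1 lower), and 1 when the library was left out of the model. The share of all genes called under these settings is not given here, so these counts show only how the calls moved.

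The 5 largest rises came from all 5 classes. Atp5h had 508 and 485 CPM in Il2ra+ Bcl11b+ cells (libraries 1 and 2), against 416 and 379 in Il2ra+ Bcl11b- cells (0.29, SE 0.04; edgeR with Benjamini-Hochberg adjustment, adjusted p = 9.69e-10). Ndufs5, an accessory subunit of complex I, had 220.9 and 235 CPM in Il2ra+ Bcl11b+ cells, against 180.7 and 192.4 CPM in Il2ra+ Bcl11b- cells (0.26; edgeR, adjusted p = 2.73e-07). Uqcrq had 406 and 391 in Il2ra+ Bcl11b+ cells, against 326 and 348 in Il2ra+ Bcl11b- cells (0.20; edgeR, adjusted p = 1.19e-05). Both libraries gave a higher value in Il2ra+ Bcl11b+ cells for each of the 3. Cox6b2 had 89.4 and 98.8 in Il2ra+ Bcl11b+ cells, against 75.9 and 82.02 CPM in Il2ra+ Bcl11b- cells (0.22; edgeR, adjusted p = 0.000343). Ndufaf3, an assembly factor of complex I, had 32.7 and 32.8 in Il2ra+ Bcl11b+ cells, against 26.1 and 27.2 in Il2ra+ Bcl11b- cells (0.26; edgeR, adjusted p = 0.00764). Each of these 5 was also highest in Il2ra+ Bcl11b+ cells among the 4 gates, in both libraries.

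The promoters of 3 of these 5 genes are shown because they hold different combinations of the motifs that are known from nuclear genes of mitochondria. Each runs from 250 bases before to 50 bases after the gene's start, 5′ to 3′ on the gene's own strand, from RefSeq on GRCm38.p6, and capitals mark motif matches: GCGC, any 2 bases and GCGC for NRF1, and CCGGAAG for ETS factors, each on both strands. The Atp5h window is chr11:115419870-115420169 (minus strand) and holds 1 NRF1 match and, as CTTCCGG, 1 ETS match on the other strand. The Ndufs5 window is chr4:123718137-123718436 (minus strand) with 1 NRF1 match. The Cox6b2 window is chr7:4753045-4753344 (minus strand) and holds no match to either.
Atp5h: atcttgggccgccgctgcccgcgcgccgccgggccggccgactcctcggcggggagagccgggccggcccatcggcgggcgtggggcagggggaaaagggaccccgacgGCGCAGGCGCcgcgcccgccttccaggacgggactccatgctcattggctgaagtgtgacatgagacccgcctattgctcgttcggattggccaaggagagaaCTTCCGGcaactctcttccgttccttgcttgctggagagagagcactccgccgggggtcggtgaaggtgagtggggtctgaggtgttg
Ndufs5: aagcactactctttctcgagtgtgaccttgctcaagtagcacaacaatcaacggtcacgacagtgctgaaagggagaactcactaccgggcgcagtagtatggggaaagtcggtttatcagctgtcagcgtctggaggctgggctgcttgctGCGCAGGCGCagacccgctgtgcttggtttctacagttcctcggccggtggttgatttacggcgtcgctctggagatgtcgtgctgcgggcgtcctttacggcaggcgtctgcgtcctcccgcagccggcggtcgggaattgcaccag
Cox6b2: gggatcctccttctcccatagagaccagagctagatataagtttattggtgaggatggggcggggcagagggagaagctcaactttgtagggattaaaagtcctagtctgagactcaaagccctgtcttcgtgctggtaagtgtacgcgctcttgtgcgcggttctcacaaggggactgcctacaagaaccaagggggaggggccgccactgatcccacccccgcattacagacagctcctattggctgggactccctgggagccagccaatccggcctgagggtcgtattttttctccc

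Of the 89 members, 71 had a promoter in that table, and 18 had none there, including Cox4i2, Cox4i1 and Cox6a2. The NRF1 letters were in 18 of the 71 (25.4%) and in 6.4% of all 27025 promoters of that length. The ETS letters were in 15 (21.1%, against 9.1% of all), the YY1 letters AAGATGGC in 9 (12.7%, against 2.9%) and the letters TCAAGGTCA of oestrogen-related receptors in 1 (1.4%, against 0.4%), the last in Atp5g3. A match is a string of letters in a window and does not show that a factor binds there.

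Among the members that were lower, Cox4i2 again changed most. It had 4.36 and 4.96 CPM in Il2ra+ Bcl11b+ cells (libraries 1 and 2), against 14.4 and 13.9 in Il2ra+ Bcl11b- cells. The difference was -1.62 (SE 0.14; edgeR, adjusted p = 4.06e-18). In the other gates it had 36.6 and 32.2 in Flt3+ cells and 23.8 in each library in cells with none of the 3. Il2ra+ Bcl11b- cells were below Flt3+ cells by -1.36 (SE 0.12, edgeR, adjusted p = 1.19e-18). Both comparisons use the Il2ra+ Bcl11b- cells. The 2 libraries agreed closely at each of the 4 gates, and the gates did not overlap. It passed in all 10 alternative settings of both comparisons. Without cells that held a UMI of Elane, Prtn3 or S100a8, genes of granulocyte precursors, the differences were -1.58 and -1.40, and without cycling cells -2.10 and -1.45. Cox4i1 lay between 692 and 801 CPM over all gates and libraries, and was itself lower in Il2ra+ Bcl11b- than in Flt3+ cells (-0.17, SE 0.04; edgeR, adjusted p = 0.00046; called in 8 of 10 alternatives). In Il2ra+ Bcl11b+ against Il2ra+ Bcl11b- cells it did not pass (edgeR, adjusted p = 0.977), and the Cox4i2 share of the pair was 4.77 and 3.87% in Flt3+ cells, 3.20 and 2.90% with none of the 3, 2.04 and 1.83% in Il2ra+ Bcl11b- cells, and 0.623 and 0.636% in Il2ra+ Bcl11b+ cells.

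**Figure D5:**
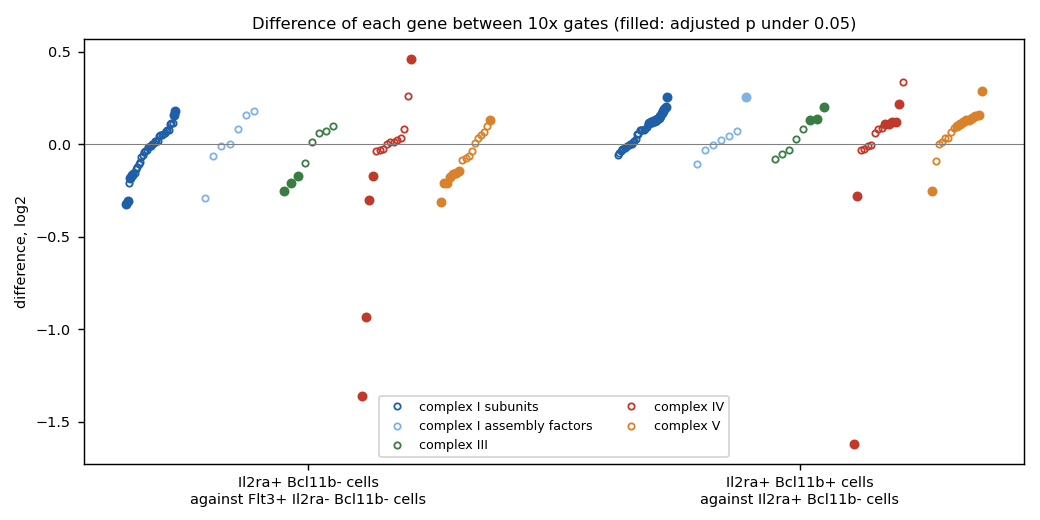
Log2 difference of each of the 84 tested members in the 10x libraries, by class, for Il2ra+ Bcl11b- against Flt3+ Il2ra- Bcl11b- cells and for Il2ra+ Bcl11b+ against Il2ra+ Bcl11b- cells, with filled points for adjusted p under 0.05 in edgeR. The first has 4 filled points above 0 and 18 below, the second 32 above and 3 below, and Cox4i2 is the lowest point in both at -1.36 and -1.62.

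The other members lower in Il2ra+ Bcl11b+ cells were Cox6a2 (-0.28, edgeR, adjusted p = 0.0403) and Atp5sl (-0.25, edgeR, adjusted p = 0.0134). Cox6a2 went opposite ways in the 2 libraries. It had 16.6 and 12.8 CPM in Il2ra+ Bcl11b+ cells, against 15.8 and 18.5 in Il2ra+ Bcl11b- cells. Cox6a2 and Atp5sl each passed in 4 of 10 alternative settings. Cycling differed too: G2/M markers summed to 858 and 672 CPM in Il2ra+ Bcl11b+ cells and 578 and 523 in Il2ra+ Bcl11b- cells, and 57.6 and 52.9% of cells held a UMI of a cycling marker, against 51.7 and 48.99%. Myeloid markers were lower in 8 of 10 tested (summed level 65.4 and 68.2 CPM in Il2ra+ Bcl11b+ cells, against 257 and 194.3 in Il2ra+ Bcl11b- cells). B-cell and plasmacytoid dendritic markers were higher in 2 of 5 tested (1069 and 982 CPM in Il2ra+ Bcl11b+ cells, against 509 and 540 in Il2ra+ Bcl11b- cells). Beyond the setting without Elane, Prtn3 or S100a8 cells, their part was not tested. In library 1 the members took a median of 2.57% of the UMIs of Il2ra+ Bcl11b+ cells with a UMI of a cycling marker and 2.32% of those without.

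In Il2ra+ Bcl11b- against Flt3+ cells, 4 members were higher and 18 lower, where 8.77% of all genes were higher and 11.8% lower. The balance depended on scaling, with 25 higher and 10 lower on library totals (share of all genes not given here). The median was -0.01, against 0.00 over all genes. The lower members included 7 of 17 of complex V, 4 of 37 complex I subunits, 3 of 8 of complex III and 4 of 15 of complex IV. Cox6a2 had 15.8 and 18.5 CPM in Il2ra+ Bcl11b- cells, against 31.7 and 30.7 in Flt3+ cells (-0.93, SE 0.12; edgeR, adjusted p = 1.28e-10). Ndufa4 had 605 and 574 in Il2ra+ Bcl11b- cells, against 750 and 646 in Flt3+ cells (-0.32; edgeR, adjusted p = 4.06e-10). Both libraries gave the same direction for both genes, and no Il2ra+ Bcl11b- value reached a Flt3+ value. Atp5sl (-0.31) and Ndufa10 (-0.31) completed the 5 largest falls. Atp5sl had 30.4 and 29.3 CPM in Il2ra+ Bcl11b- cells, against 30.6 and 39.4 in Flt3+ cells, so its difference came from library 2, and it passed in 4 of 10 alternatives.

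Of the 4 higher members Cox6b2 changed most, with 75.9 and 82.02 CPM in Il2ra+ Bcl11b- cells, against 53.6 and 54.9 in Flt3+ cells (0.46, SE 0.07; edgeR, adjusted p = 2.35e-07). Ndufa11 (0.18), a membrane-arm subunit of complex I, Ndufs5 (0.16) and Atp5g1 (0.13) were the other 3. Cox6b2 thus stood higher at each gate, with 65.2 and 71.4 CPM in cells with none of the 3 lying between, and its share of the Cox6b pair was 9.02 and 9.42% in Flt3+ cells and 12.9 and 13.7% in Il2ra+ Bcl11b+ cells. Myeloid markers summed to 257 and 194.3 CPM in Il2ra+ Bcl11b- cells and 238 and 301 in Flt3+ cells, and G2/M markers to 578 and 523, against 678 and 664; their part in these differences was not tested beyond the settings above.

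The sorted libraries gave the 32 genes that were higher in Il2ra+ Bcl11b+ than in Il2ra+ Bcl11b- 10x cells no calls of their own. In Bcl11b+ against Bcl11b- DN2a, 31 of the 32 had a bulk estimate above 0, against 69 of all 85 tested members, with a median of 0.12 (lowest -0.05, highest 0.28) and with 95% intervals that reached a median of 0.38 to each side. The changes seen in 10x cells were within those intervals in size.

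The C1 cells, with full-length reads, gave values only, since every sample is 1 cell and no animal is named. Of the cells with at least 1000 genes, 65 had Flt3 and neither Il2ra nor Bcl11b above 1 FPKM, 33 had none of the 3, 94 had Il2ra and not Bcl11b, and 29 had both. Cox4i2 was above 1 FPKM in 20 of 65 (30.8%), 8 of 33 (24.2%), 12 of 94 (12.8%) and 4 of 29 (13.8%) of these cells, in that order, while Cox4i1 was above 1 FPKM in every one. Cox6b2 was above 1 FPKM in 26, 10, 43 and 17 of the same cells, which is 58.6% in the gate with both. Members as a group took a median of 3.25, 3.19, 2.97 and 3.51% of a cell's summed FPKM. Cox8b, Cox8c and Ndufa4l2 were above 1 FPKM in 0 cells.

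Other genes of the pathway changed in small numbers in bulk. Complex II (4 genes) had no called gene in any of the 5 comparisons in limma, nor had the 4 assembly and inhibitor genes of complex V. Between Flt3- and Flt3+ ETP none of the pathway genes listed passed in limma. Against Flt3- ETP, Bcl11b- DN2a were higher only in Ogdh (1.04), a subunit of 2-oxoglutarate dehydrogenase, of 14 genes of the tricarboxylic acid cycle. Against total ETP, Bcl11b- DN2a were higher in Cyc1 (0.65), the haem subunit of complex III, in the copper chaperone Cox17 (0.99) and Coa3 (0.67), in Ecsit (0.83), in Mdh2 (0.58) and Idh2 (0.51) of the tricarboxylic acid cycle, in the receptor Esrra (0.79), and in 20 of 78 mitochondrial ribosomal protein genes. They were lower in Cox20 (-0.64), Tmem126b (-0.60), Gabpb1 (-0.64) and Mterf3 (-0.61). Of all genes, 9.78% were higher and 5.87% lower in that comparison. In Bcl11b+ against Bcl11b- DN2a, 1 mitochondrial ribosomal protein gene was higher and no other listed pathway gene passed in limma. Bcl11b+ DN2a against Flt3+ ETP were higher in Cycs (0.44), the electron carrier cytochrome c, in Lyrm7 (0.74) and in 1 mitochondrial ribosomal protein gene, and lower in Myc (-0.68) and Tmem186 (-0.61).

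In 10x cells more of them passed, and so did more of all genes. Between Bcl11b+ and Bcl11b- cells with Il2ra, 26.3% of all genes passed, against 2.79% between the sorted DN2a populations. That share was 12.6% higher and 13.7% lower. Between Il2ra+ Bcl11b- and Flt3+ cells it was 8.77% higher and 11.8% lower. In Il2ra+ Bcl11b+ against Il2ra+ Bcl11b- cells, 15 of 76 mitochondrial ribosomal protein genes were higher and 0 lower, and Cyc1 (0.13), Sdhb (0.14, an iron-sulphur subunit of complex II), Cox16 (0.41), Cox20 (0.24) and Cox17 (0.16) were higher while Sco2 (-0.30) was lower. Of the 16 regulators, 3 were higher, among them Gabpa (0.35) and Gabpb2 (0.29), and 3 lower, among them Esrra (-0.38) and Gabpb1 (-0.23). The tricarboxylic acid cycle had 2 genes higher and 4 lower of 14, with Idh2 (-0.33) and Suclg1 (-0.27) lower and Mdh2 (0.16) higher, and 0 of 13 mitochondrially encoded subunits were higher and 1 lower. In Il2ra+ Bcl11b- against Flt3+ cells, 4 of the 13 mitochondrially encoded subunits were higher, Cycs (0.31) and Atpif1 (0.20, the inhibitor of ATP synthase) and Higd1a (0.22) were higher, and Cyc1 (-0.15), Tmem70 (-0.35), Tmem186 (-0.67) and Gabpb1 (-0.59) were lower. The tricarboxylic acid cycle had 1 gene higher there (Ogdh, 0.40) and 4 lower, including Idh3b (-0.36), and the mitochondrial ribosome 8 higher and 5 lower of 76. Ppargc1a, a coactivator of mitochondrial genes, also passed as lower, on 1 and 1 UMIs in Il2ra+ Bcl11b- cells against 6 and 8 in Flt3+ cells.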

How the data were processed

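The deposited bulk and C1 values are FPKM; per the submitters' processing notes STAR 2.4.0, RSEM 1.2.25, HOMER and edgeR 3.6.8 were used, with no role given for each here. The deposited 10x values are UMI counts per gene and cell, from Cell Ranger 2.0 per the submitters' processing notes, on mm10. Bulk differences were fitted with limma 3.58.1 (variance trend) on log2(FPKM + 1) with population and kit, over the 12112 genes above 1 FPKM in at least 2 libraries; such folds understate changes of low genes. 10x counts were summed by gate and library and tested with edgeR 4.0.16 (quasi-likelihood, trimmed-mean scaling, library block). Calls are Benjamini-Hochberg adjusted p under 0.05. Both tests were tested on simulated data. Members named are those that passed (at most 10 a direction in bulk, 5 in 10x), the largest estimates of each class, and the isoform pairs. Other genes are those that passed, up to 4 a list. Members and lists were chosen with earlier results of these data known. Alternatives covered scaling, filters, kit, blocks and single libraries. Depth in reads was recovered from FPKM steps, 98.2 to 100.0% of values being whole within 0.1 read. The SMART-Seq libraries carry no replicate number. Among the NEBNext libraries of total ETP and both DN2a, differences between replicates 1 and 2 correlated across genes at 0.298, 0.396 and 0.751 for the 3 pairs of populations. The pairs with total ETP gave 0.298 and 0.396. The replicate block took the numbers as pairing libraries, from the data and not from a label. Library numbers do not bear this out for total ETP. Both its libraries (20720 and 20719) are numbered with the second DN2a libraries (20721 and 20722), and the first DN2a libraries are 16676 and 16675.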

Additional observations from a re-analysis of the deposited data

How the results depend on the processing

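Counts of members called in bulk moved with single libraries. They show only how the calls moved, since the share of all genes called is not given beside them. Leaving out 1 library gave 0 to 16 for Flt3- against Flt3+ ETP, 0 to 18 for Bcl11b- DN2a against Flt3- ETP, 0 to 29 for Bcl11b- DN2a against total ETP, 1 to 2 for Bcl11b+ DN2a against Flt3+ ETP, and 1 each time (median -0.0355 to 0.1818) for Bcl11b+ against Bcl11b- DN2a. A block on the library-number series gave 5, 2, 9 and 7 in the first 4 of these comparisons, in that order. Without a kit term they were 0 for Bcl11b- DN2a against Flt3- ETP, 0 for Bcl11b+ against Bcl11b- DN2a, 0 for Bcl11b- DN2a against total ETP (members' median 0.68) and 1 for Bcl11b+ DN2a against Flt3+ ETP. NEBNext libraries alone gave 8 for Bcl11b- DN2a against Flt3- ETP, 0 against total ETP and 1 for Bcl11b+ DN2a against Flt3+ ETP; no filter on low values gave 1 and 1 in the last 2. The replicate block gave 33 calls (32 higher, 1 lower) for Bcl11b- DN2a against total ETP and 4 for Bcl11b+ DN2a against Flt3+ ETP, and left the other 3 bulk counts as they were. Its pairing is not borne out by the library numbers for total ETP.

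In 10x cells, Il2ra+ Bcl11b- against Flt3+ cells had 4 calls with no replicate block, 13 in DESeq2, 35 without trimmed-mean scaling (median 0.0687), 14 with gates of 2 UMIs and 13 without cycling cells. Il2ra+ Bcl11b+ against Il2ra+ Bcl11b- cells had 1 with no replicate block, 13 in DESeq2, 14 at 4000 UMIs a cell, 12 with gates of 2 UMIs and 19 without cycling cells. Its median of 0.08 was 0.0854 with median-ratio scaling, 0.0855 in DESeq2, 0.0812 without a filter, 0.113 without trimmed-mean scaling, 0.059 at 4000 UMIs, 0.0653 with gates of 2 UMIs, 0.0944 without cycling cells, 0.0748 without Elane, Prtn3 or S100a8 cells, and 0.0677 to 0.0711 with 1 library left out. Here too the share of all genes called is not given beside the counts. The cause of these moves was not tested.

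The 16 named calls in bulk were lost in 97 of their recomputed values and the 24 in 10x in 63 of 240; none reversed. The bulk call of Cox4i2 was lost without a kit term in Bcl11b- DN2a against Flt3- ETP and in Bcl11b+ against Bcl11b- DN2a, and without the NEBNext library of Flt3- ETP in the first of these. The settings on the library-number series alone, trimmed-mean scaling, Elane, Prtn3 or S100a8 cells and single 10x libraries were chosen after seeing the data. With 2 or 3 libraries a group, the 95% intervals reached a median of 0.34 to 0.42 to each side on the log2 scale, which limits what bulk could show.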
